A study of Homo sapiens with 12 samples.

Results

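The comparison described here sets HepG2 cells that received a small interfering RNA against the truncated form of β-catenin (si-mut, 3 arrays) beside HepG2 cells that received a control RNA (siCtrl, 3 arrays). These are 6 of the 12 arrays of the series, chosen by their titles, and 14884 named genes were compared between them. HepG2 is an established cell line grown from a human liver tumour. One allele of its β-catenin gene carries a deletion in the region of exon 3, which removes residues phosphorylated by GSK-3β to mark the protein for degradation. The genotype shared by all groups therefore encodes a shortened, stable protein next to the full-length one, and no protein was measured here. The other arrays came from cells in which the full-length protein alone (si-WT, 3 arrays) or both proteins (si-both, 3 arrays) were targeted, and all 4 groups were sampled at 120 h. The comparison asks what the truncated form contributes to gene expression in this line. No other genotype and no other cell line was used, and the labels do not say that the 3 samples of a group were separate cultures. The p-values therefore cover only the spread among the arrays of a group, and that spread may be technical.

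β-catenin is the transcriptional effector of the canonical Wnt pathway. Without a Wnt signal a destruction complex built on AXIN and APC holds it for phosphorylation by GSK-3β and degradation, and with a signal it enters the nucleus and joins TCF and LEF factors at target genes. Many of those targets are brakes on the same pathway, which is why their levels are read as a gauge of its activity. In the liver β-catenin sets the programme of hepatocytes near the central vein and supports growth, and liver tumours often carry activating changes in its gene.

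Values are log2 intensities made by the authors with RMA, so a difference of 1 is a doubling. Precision is limited by having 3 arrays in a group. The median of all probe sets lay between 4.71 and 4.78 on the 12 arrays, which is close to the floor of the array. Changes from or to such levels are compressed and are given here on the log2 scale only. The probe sets of the targeted gene were not analysed here, so the knockdown itself was not checked and the labels alone define the groups. Across genes, r between arrays of a group was 0.994 to 0.997, with 0 identical pairs. The labelled cell type showed its markers: 9 measured hepatocyte markers averaged 12.19 to 12.24 on the siCtrl arrays and 12.74 to 12.81 on the si-mut arrays. The 3 measured fibroblast markers averaged 3.82 to 3.86 and 3.89 to 3.95, at the floor on every array, and 0 of them passed the test. Of 4 measured leukocyte markers CD68 rose by 0.48 and LYZ fell by 0.39 (-0.28 and not called with the mean of its probe sets). This list was not at the floor: it averaged 8.31 to 8.37 on the siCtrl arrays and 8.38 to 8.55 on the si-mut arrays. LYZ was its brightest member, at 12.72 after siCtrl. The 5 measured intestinal markers averaged 6.34 to 6.47 and 6.45 to 6.5, with a highest siCtrl level of 10.76. Of 6 endothelial markers VWF rose by 0.33 to a mean of 4.57, a call lost in 4 of the 6 fits that left out 1 array.

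After si-mut 3810 of the 14884 genes (25.6%) passed limma's test at an adjusted p under 0.05. Of these, 1783 were higher (12% of all genes) and 2027 lower (13.6%). The 3 arrays of the groups did not overlap for 6052 genes (40.7%), which includes 3769 of the 3810. Most changes were small, with a median absolute log2 change of 0.44 among called genes. In these bulk samples fewer cells of a kind and less RNA per cell cannot be told apart. At least 2-fold changes were found for 308 genes, 181 higher and 127 lower, and at least 4-fold changes for 22 higher and 14 lower. The share of genes called was higher at higher siCtrl levels, from 3.48% below a level of 4 to 56% above a level of 10. The gene lists below were not matched for level, so their counts are to be read beside these shares and the 25.6% over all genes. The first principal component of the 6 arrays held 73.1% of their variance and placed the siCtrl arrays at -21.9 to -21.7 and the si-mut arrays at 20.2 to 23. Along the mean change of the called genes the 3 si-mut arrays stood at 0.962, 1.025 and 1.013 of the group's response. The mean of these values is fixed by construction, and the genes were chosen on the same arrays. They describe how the arrays differ and do not test their agreement.

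**Figure D1:**
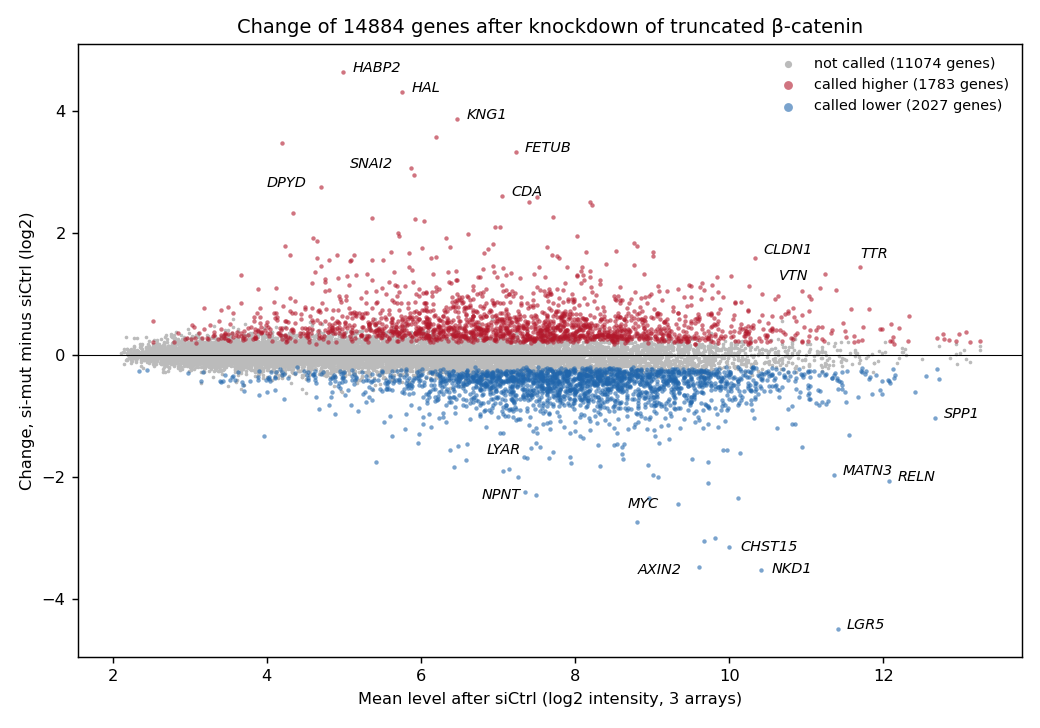
Each point is a gene; the horizontal axis is its mean level on the 3 siCtrl arrays (log2 intensity) and the vertical axis its change, si-mut minus siCtrl (log2). Red and blue points passed limma's test. LGR5 lies lowest, at -4.49, from a siCtrl level of 11.41, while the genes that rose most (HABP2, HAL, KNG1) started from levels of 4.99 to 6.47.

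The genes known as direct readouts of Wnt signalling were among those that fell furthest. Of 22 measured members of a list of Wnt feedback and target genes 13 fell and 1 rose, with a median log2 change of -1.09, beside 0.01 over all genes. The feedback inhibitors alone had a median of -2, with 8 of 11 lower. LGR5, the receptor for R-spondins, which strengthen Wnt signals, read 11.33, 11.41 and 11.49 on the siCtrl arrays and 8.17, 6.57 and 6.02 on the si-mut arrays. LGR5 thus changed by -4.49 ± 0.43 on the log2 scale (± SE here and below; 3 arrays in each group; adjusted p = 5.14e-06 by limma), with the si-mut arrays far below every control array but also far from each other. The next 2 genes shared this pattern, the first si-mut array standing above the others. NKD1, which binds Dishevelled and dampens the signal, read 10.40, 10.37 and 10.47 after siCtrl and 7.71, 6.53 and 6.43 after si-mut. AXIN2, the scaffold of the destruction complex that Wnt itself induces, read 9.68, 9.50 and 9.65 after siCtrl and 6.72, 5.83 and 5.89 after si-mut. Without si-mut replicate 1 the change of LGR5 was -5.11, that of NKD1 -3.93 and that of AXIN2 -3.75. Over the 14 called members of the list that array stood at 0.852 of the group's response, beside 1.049 and 1.098. The mean of these values is again fixed, and the members were called on the same arrays.

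Other inhibitors of the pathway were lower too, and in NOTUM, ZNRF3, APCDD1 and SP5 the first si-mut array again stood highest. NOTUM, an enzyme that strips the lipid from Wnt proteins, went from 9.63, 9.66 and 9.73 to 6.85, 6.59 and 6.47. ZNRF3 and RNF43 are ubiquitin ligases that remove Wnt receptors from the cell surface. ZNRF3 went from 9.63, 9.77 and 9.76 to 7.90, 7.64 and 7.34, and RNF43 from 9.03, 9.06 and 9.14 to 7.09, 7.07 and 7.08. The 3 si-mut values of RNF43 were nearly equal, and its change of -2 ± 0.07 had the smallest error relative to its size among the 14 called members. APCDD1, a membrane protein that binds Wnt ligands, fell by 1.90 to levels of 5.39, 5.22 and 4.89, near the floor. SP5, a transcription factor that competes at Wnt-driven promoters, went from 10.17, 10.12 and 10.06 to 8.04, 7.78 and 7.48 (5.1-fold lower, adjusted p = 3.13e-06).

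The 2 Dickkopf genes on the list moved apart. DKK1, a secreted blocker of the LRP5 and LRP6 co-receptors, fell 2.48-fold, from 11.58, 11.45 and 11.65 to 10.27, 10.20 and 10.27. DKK4, a secreted protein of the same family, rose 3.44-fold, from 7.61, 7.61 and 7.69 to 9.61, 9.57 and 9.07, and was the single member of the list that rose. Both differences were larger than the spread within groups.

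Among targets with other roles, MYC, a transcription factor that drives growth, fell 5.44-fold, from 9.39, 9.31 and 9.33 to 6.99, 6.91 and 6.81 (adjusted p = 1.04e-08). BMP4, a secreted growth factor, fell 2.86-fold, from 10.87, 11 and 10.97 to 9.43, 9.44 and 9.42. SOX9, a factor of liver progenitors and bile duct cells, fell by 0.88 and the cyclin CCND1 by 0.84, with si-mut levels of 9.85 to 9.90 and 9.03 to 9.10. Another 8 members did not pass, and most of them sat at or near the floor in both groups. LEF1, itself a partner of β-catenin, was at 3.24 after siCtrl and 3.18 after si-mut, and the 95% interval of its change ran from -0.29 to 0.17. ASCL2, a factor of intestinal stem cells, changed by -0.12 from 5.45.

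**Figure D2:**
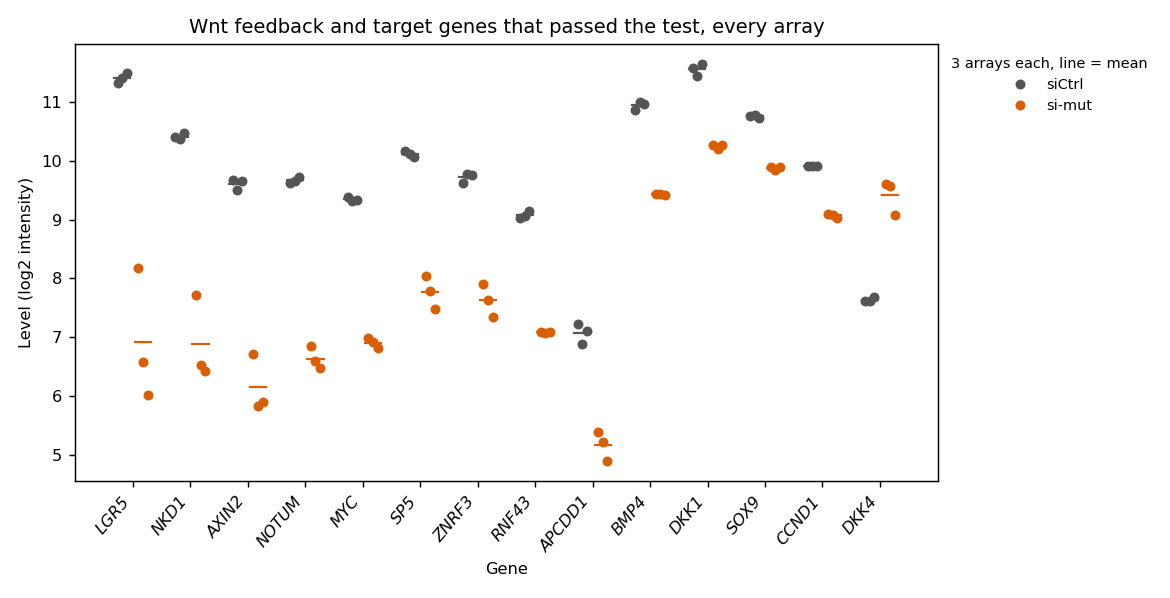
Levels (log2 intensity) of the 14 Wnt feedback and target genes that passed the test, with 1 point for each of the 3 siCtrl (grey) and 3 si-mut (orange) arrays and a line at the mean. In 13 genes the si-mut points lie below every siCtrl point; DKK4 is the exception, and in LGR5, NKD1 and AXIN2 the first si-mut array lies above the other 2.

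Promoter sequence was available for part of the measured genes: 14884 windows of 10749 genes, each from 250 bases before a start site to 49 bases past it (RefSeq, GRCh38.p14; that this equals the number of genes compared is a coincidence). The TCF/LEF core CTTTGAT, searched on both strands as were all motifs below, was found in 1.85% of all windows, in 1.19% of the windows of genes that fell, and in 5 of 118 windows (4.24%) of genes that fell at least 2-fold. Among genes that rose the core was in 1.82% of windows, and in 3 of 187 (1.6%) for rises of at least 2-fold. Those windows belong to CCR6, GSTA1 and GSTA2, of which GSTA1 and GSTA2 were among the 20 largest rises. In the Wnt list the core was found in 1 of 14 windows, that of SP5. The TCF/LEF core can share bases with the HNF4 letters used further below. It did so in 1 window (CCR6) among those of genes called with changes of at least 2-fold, and the remaining windows were not compared for this. The promoters of SP5 and SRARP are shown because they hold this core, in capitals, and belong to genes among the 20 largest falls; they were picked after the values were seen. SP5 lies at chr2:170715087-170715336 (plus strand, bases -250 to -1) and SRARP at chr1:16004036-16004235 (plus strand, bases -200 to -1).
SP5: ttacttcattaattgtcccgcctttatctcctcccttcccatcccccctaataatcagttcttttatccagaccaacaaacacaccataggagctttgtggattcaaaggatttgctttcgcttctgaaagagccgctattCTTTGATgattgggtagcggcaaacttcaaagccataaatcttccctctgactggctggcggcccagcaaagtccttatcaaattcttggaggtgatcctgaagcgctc
SRARP: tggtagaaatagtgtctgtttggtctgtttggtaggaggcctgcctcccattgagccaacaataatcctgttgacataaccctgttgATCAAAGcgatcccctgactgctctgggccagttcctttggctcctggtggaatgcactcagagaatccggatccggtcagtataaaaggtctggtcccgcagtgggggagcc
SRARP, a small protein that interacts with steroid receptors, went from 7.12, 7.13 and 7.17 to 5.32, 5.12 and 5.41. Counted from the start site, the core stands at bases -109 to -103 of SP5 and, read on the other strand, at bases -113 to -107 of SRARP. A match describes the letters in this window and does not show binding.

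The machinery that carries a Wnt signal changed less than its targets. Of 46 measured ligands, receptors and transducers 6 rose and 5 fell, with a median log2 change of 0.03. The share called was close to the 25.6% called over all genes (12% higher and 13.6% lower). The 6 measured ligands and R-spondins and the 6 nuclear partners of β-catenin included 0 called genes, among them CREBBP, a histone acetylase, with a change of 0.11 ± 0.07. The falls were in KREMEN1, a co-receptor of Dickkopf proteins, at -1.13, in 3 Frizzled receptors, and in AMER1, a membrane anchor of the destruction complex, at -0.67. KREMEN1 went from 8.42, 8.47 and 8.44 to 7.51, 7.16 and 7.27. FZD4 went from 9.29, 9.32 and 9.25 to 8.46, 8.48 and 8.32, and FZD3 and FZD6 fell by 0.76 and 0.75. The rises were smaller: FZD1 by 0.38, and, named after their values were seen, APC by 0.30, LGR4 and FZD5 by 0.29, BTRC by 0.28 and GSK3B by 0.22. Without siCtrl replicate 1 only 3 genes of the list were called higher, and APC, LGR4, BTRC and GSK3B were not among them. GSK3B also lost its call without siCtrl replicate 2 or 3 or si-mut replicate 1 or 2. APC also lost it without siCtrl replicate 3 or si-mut replicate 3. The receptor family therefore did not move one way, with 3 of 17 receptors higher and 3 lower.

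Genes of ribosome assembly fell as a block. Of 28 measured nucleolar factors, proteins that process and assemble ribosomal RNA, 28 fell, with changes from -1.5 to -0.42 and a median of -0.8. LYAR, a nucleolar growth regulator, read 7.58, 7.52 and 7.55 after siCtrl and 6.20, 6.04 and 5.89 after si-mut. DDX21, an RNA helicase of the nucleolus, went from 9.88, 9.86 and 9.83 to 8.85, 8.64 and 8.55. NOLC1, MYBBP1A, BOP1 and NAT10, which acetylates ribosomal RNA, fell 2.04-fold to 2.12-fold. In each of these genes the lowest control array lay above the highest si-mut array.

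The supply side of protein synthesis was lower too, by smaller amounts. Of 49 cytosolic ribosomal protein genes 37 fell and 0 rose, with a median of -0.37, RPL32 at -0.82 and RPS16 at -0.72. The brightest members that were not called, RPS28, RPL41 and RPL10, with siCtrl means of 13.13, 13.07 and 12.96, had changes of -0.11, -0.06 and -0.15. Under renewed quantile normalization they were called, at -0.31, -0.24 and -0.29, and RPS28 and RPL10 were also called with the trended and robust prior, RPL10 with dim genes left out too. Of 17 cytosolic aminoacyl-tRNA synthetases, which load tRNAs with amino acids, 11 fell and 0 rose, with VARS1 at -0.66 and LARS1 at -0.58. Of 15 translation factors 10 fell, and EIF4EBP1, an inhibitor of cap-dependent translation, fell most, by 0.99. The single translation gene that rose was the related inhibitor EIF4EBP2, by 0.23 (named after its value was seen). Of 73 mitochondrial ribosomal proteins 29 fell and 1 rose, with a median of -0.19, and MRPL16 and MRPL15 were at -0.69 and -0.66. Over all genes at siCtrl levels of 8 to 10, 845 of 2558 were called lower and 457 higher. Whether this list differs from genes of like level was not tested. The 29 falls became 19 without siCtrl replicate 1 and 17 without si-mut replicate 3. EIF4EBP2 lost its call without siCtrl replicate 1 or 3 or si-mut replicate 2 (0.20 to 0.23).

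Polymerase subunits and hosts of small RNAs were mostly lower. Of 9 subunits and factors of RNA polymerases I and III 6 fell and 0 rose, and 3 fell without siCtrl replicate 3, si-mut replicate 1 or si-mut replicate 3. POLR3G, a polymerase III subunit of proliferating and stem cells, fell from 6.50, 6.64 and 6.74 to 5.62, 5.46 and 5.64. Of 12 host genes of small nucleolar RNAs 8 fell and 1 rose, with GAS5 at -0.94, SNHG17 at -0.78 and SNHG33 at 0.64. Of 23 small Cajal body RNAs 9 fell and 2 rose, led by SCARNA9L, which fell by 1.75 to levels of 3.57 to 3.73; without siCtrl replicate 1 the count of falls was 5.

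Nucleotide synthesis fell in nearly every step measured. Of 20 genes 18 fell and 1 rose, with a median of -0.58. PRPS2, which makes the sugar phosphate from which nucleotides are built, went from 9.22, 9.26 and 9.19 to 7.92, 7.73 and 7.92. CTPS1, which makes CTP, fell by 0.98, while its paralogue CTPS2 had a change of -0.06 ± 0.08. IMPDH2 and HPRT1, enzymes of guanine nucleotide synthesis and purine salvage, each fell by 0.89. The single rise was that of IMPDH1, by 0.23 (named after its value was seen; not called without siCtrl replicate 1 or 2 or si-mut replicate 1, at 0.21 to 0.22). The contrast between these paralogues was not tested. MTHFD1L, a mitochondrial enzyme that supplies formate for purines, fell by 1.15, the polyamine enzymes SMS and ODC1 by 0.59 and 0.42.

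Besides MYC itself, 4 of 8 measured partners and antagonists of MYC passed the test. MXD1, which replaces MYC on its partner MAX, rose from 7.93, 7.98 and 8.07 to 8.96, 8.98 and 8.84, and the related MXD4 rose by 0.43. MXI1 and MXD3, of the same family, fell by 0.47 and 0.25. The dimmer probe set of MXI1 changed by -0.1. The call of MXD3 was lost without siCtrl replicate 3 (-0.24) or si-mut replicate 3 (-0.22) and with the mean of its probe sets (-0.07). The antagonists thus moved in both directions.

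MYC and MAX are known to read the E-box CACGTG. It was present in 8.55% of all windows, in 11.7% of windows of genes that fell, in 19.5% of those that fell at least 2-fold and in 10 of 26 windows (38.5%) of the ribosome assembly genes. These shares describe the windows and were not tested. The promoters of LYAR and DDX21, whose genes fell most on that list, are shown, with the E-box in capitals. LYAR lies at chr4:4290022-4290121 (minus strand) and DDX21 at chr10:68956547-68956646 (plus strand), both as bases -100 to -1.
LYAR: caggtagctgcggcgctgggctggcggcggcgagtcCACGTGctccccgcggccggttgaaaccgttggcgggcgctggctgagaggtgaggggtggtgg
DDX21: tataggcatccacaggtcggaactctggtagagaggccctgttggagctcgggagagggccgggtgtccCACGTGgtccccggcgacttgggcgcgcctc
The E-box lies at bases -64 to -59 of LYAR and at bases -31 to -26 of DDX21.

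Cell cycle genes were lower at each stage measured. Of 19 genes of DNA replication 18 fell and 0 rose, with a median of -0.68, and the single one that did not pass was the licensing factor CDC6 (-0.23 ± 0.10, SE), which was called in the fit of the 6 arrays alone (adjusted p = 0.0456) and with array weights (0.0438). The 6 subunits of the MCM helicase, which opens DNA at origins, were all among the falls. MCM5 read 8.89, 8.82 and 8.75 after siCtrl and 7.85, 7.82 and 7.53 after si-mut, and MCM6 went from 8.09, 8.09 and 8 to 7.07, 7.08 and 6.98. UHRF1, which copies DNA methylation after replication, fell by 0.92. Of 21 genes of mitosis 20 fell and 0 rose, with a median of -0.57, and the falls ran from -0.33 to -0.79. The kinase PLK1 went from 11.69, 11.63 and 11.67 to 11.01, 11 and 10.95, and the checkpoint kinase BUB1 fell by 0.79. ESPL1, the protease that separates sister chromatids, was the one not called, at 0.24 ± 0.11; without si-mut replicate 3 it was called higher, at 0.35.

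Regulators of entry into the cycle changed more unevenly. Of 22 measured genes 14 fell and 0 rose, and 9 fell without siCtrl replicate 2 or si-mut replicate 3. CDK6, a partner of the D cyclins, went from 9.98, 9.91 and 10.01 to 8.46, 8.28 and 8.49, a 2.94-fold fall. E2F7, a repressor among the E2F factors, fell by 1.11, the E cyclins CCNE2 and CCNE1 by 0.82 and 0.68, and E2F3 by 0.67. E2F1 and E2F8 had changes of -0.35 ± 0.14 and -0.39 ± 0.17 that did not pass (adjusted p = 0.0817 and 0.112). In the fit of the 6 arrays alone and with array weights both were called (adjusted p = 0.00953 and 0.00277 in the former), and E2F1 also with dim genes left out and with the replicate number in the model.

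The E2F site TTTNGCGC was found in 2.19% of all windows, in 3.79% of those of genes that fell, in 2 of 118 (1.69%) of those of genes that fell at least 2-fold and in 9 of 24 windows (37.5%) of the replication list. The CHR element TTTGAA, through which late cell cycle genes are known to be controlled, was found in 12.1% of all windows, in 13.9% of those of genes that fell, in 14.4% of those of genes that fell at least 2-fold and in 13 of 21 windows (61.9%) of the mitosis list. These elements were searched because they are known in such promoters, and the shares were not tested. MCM6 (chr2:135876504-135876603, minus strand, bases -160 to -61) and PLK1 (chr16:23678789-23678888, plus strand, bases -100 to -1) are shown as examples, with the E2F sites and the CHR element in capitals.
MCM6: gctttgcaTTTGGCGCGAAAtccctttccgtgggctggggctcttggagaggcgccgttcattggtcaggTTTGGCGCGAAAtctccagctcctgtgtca
PLK1: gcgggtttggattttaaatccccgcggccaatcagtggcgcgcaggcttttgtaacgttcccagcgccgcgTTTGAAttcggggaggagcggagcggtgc
In MCM6 the 2 stretches in capitals each hold the letters on both strands.

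Genes for proteins that the liver secretes into blood were mostly higher after si-mut, as the counts below give. The hepatocyte markers moved the same way, with 8 of 9 higher and mean levels of 12.19 to 12.24 after siCtrl and 12.74 to 12.81 after si-mut. Under renewed quantile normalization 6 of these markers were called higher, and their median change was 0.21 in place of 0.35. Several of the markers are themselves plasma proteins, and their part in the result was not tested. Of 17 measured genes of coagulation and fibrinolysis 16 rose and 1 fell, with a median of 0.69, and all 11 clotting factors were among the rises. HABP2, a serine protease that activates factor VII, read 4.82, 5.37 and 4.77 after siCtrl and 9.25, 9.86 and 9.79 after si-mut. It rose by 4.65 ± 0.19, the largest change of any gene, from a level near the floor (adjusted p = 5.66e-09). KNG1, the precursor of bradykinin, went from 6.49, 6.48 and 6.44 to 10.37, 10.50 and 10.17. This is the value of its brighter probe set, and its other probe set changed by 0.16, so the sets of this gene disagree. PLG (plasminogen, the zymogen that dissolves clots) went from 6.75, 6.65 and 7.07 to 8.59, 8.46 and 8.47; a near-identical copy makes the value uncertain for the single gene. The fibrinogen chain FGB rose by 1.11, F12 by 1.02 and HRG, from 3.66, by 1.32. The single fall was in CPB2, an inhibitor of fibrinolysis, from 11.04, 11.02 and 11.05 to 10.39, 10.40 and 10.21 (named after its value was seen).

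Among 17 complement genes there were 11 rises and 0 falls, with a median of 0.51. MASP1, a protease of the lectin pathway, went from 7.63, 7.81 and 7.91 to 9.37, 9.27 and 9.49. The terminal component C5 rose 2.44-fold, C2 2.18-fold and C6 2.1-fold, and VTN (vitronectin, which blocks the lytic complex) rose from 11.27, 11.18 and 11.31 to 12.56, 12.66 and 12.52. CFI, which inactivates C3b, had a change of 0.01 ± 0.06 at a level of 10.63. Most but not all of the cascade was therefore higher, with CFI the brightest member that did not pass.

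Apolipoproteins rose in 12 of 16 cases and fell in 0, with a median of 0.63. APOA4 went from 6.90, 6.90 and 7.01 to 8.65, 8.42 and 8.15, and APOF, a small apolipoprotein of plasma, rose by 1.37. APOM, a carrier of sphingosine phosphate, rose 2.19-fold, and LCAT, the enzyme that esterifies plasma cholesterol, 2.01-fold. The members already at the top of the scale, APOA2 and APOB with siCtrl means of 13.25 each, changed by 0.09 and 0.15 and did not pass. APOB was called with the trended and robust prior (adjusted p = 0.00693), and both changes turned negative under renewed quantile normalization.

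Of 17 plasma carriers and binding proteins 13 rose and 0 fell, with a median of 0.38. FETUB, a protease inhibitor, went from 7.19, 7.29 and 7.22 to 10.75, 10.65 and 10.32. A1BG rose from 8.36, 8.03 and 8.28 to 10.70, 10.81 and 10.56, and HPX, which binds free haem, from 6.27, 5.88 and 5.97 to 8.26, 8.31 and 8.15. TTR (transthyretin, carrier of thyroid hormone and retinol-binding protein) was among the genes that rose most from a siCtrl level above 10, from 11.69, 11.63 and 11.78 to 13.14, 13.09 and 13.21. ALB rose by 0.38. The acute-phase genes HP, CP, ORM1 and ORM2 had changes of 0.24, 0.30, 0.24 and 0.04 that did not pass, and HP and its near-identical copy HPR may share signal.

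**Figure D3:**
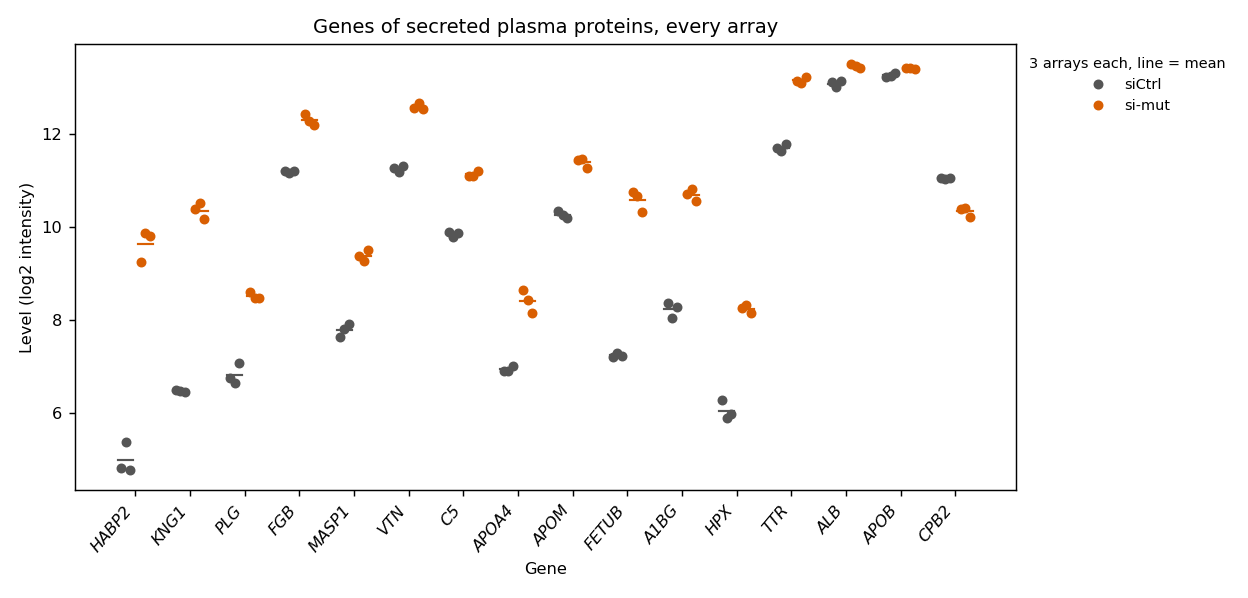
Levels (log2 intensity) of 16 genes of secreted plasma proteins, with 1 point for each of the 3 siCtrl (grey) and 3 si-mut (orange) arrays and a line at the mean. HABP2 and KNG1 rise from 4.99 and 6.47 to 9.63 and 10.35, while APOB, at 13.25 after siCtrl, changes by 0.15 and CPB2 falls by 0.71.

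Hepatocyte-type promoters often hold sites for the factors HNF1 and HNF4. The HNF1 letters GTTAATNAT were found in 0.679% of all windows, in 1.53% of those of genes that rose, in 0.308% of those that fell and in 10 of 187 windows (5.35%) of genes that rose at least 2-fold. The HNF4 letters CAAAGTCCA were found in 0.376% of all windows, in 1.13% of those of genes that rose and in 7 of 187 (3.74%) of genes that rose at least 2-fold. The counts are small and no test was run. HABP2 (chr10:113552953-113553052, plus strand) and AGXT2 (chr5:35047950-35048049, minus strand) are shown as bases -100 to -1, with the HNF1 and the HNF4 letters in capitals; they were chosen after the matches were seen.
HABP2: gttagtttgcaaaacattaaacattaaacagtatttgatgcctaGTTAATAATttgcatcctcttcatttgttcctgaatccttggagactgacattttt
AGXT2: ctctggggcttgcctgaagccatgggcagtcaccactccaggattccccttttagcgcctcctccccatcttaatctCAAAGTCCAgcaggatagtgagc
AGXT2, a mitochondrial aminotransferase, went from 4.71, 4.79 and 4.77 to 5.75, 5.75 and 5.96, from levels at the floor.

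Transcription factors of the hepatocyte rose in 7 of 11 cases and fell in 1, with a median of 0.37. ONECUT1, a factor of liver development, read 8.75, 8.79 and 8.88 after siCtrl and 10.65, 10.57 and 10.59 after si-mut. PPARA, the nuclear receptor of fatty acid use, rose by 0.89, FOXA3 by 0.46 and FOXA1 by 0.40. GATA6, a factor of early endoderm, fell from 8.40, 8.39 and 8.33 to 7.48, 7.54 and 7.56.

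Genes that mark fetal liver, progenitors and tumours were mixed, with 3 of 23 higher and 8 lower and a median of -0.08. SPP1 (osteopontin) fell from 12.68, 12.72 and 12.63 to 11.81, 11.72 and 11.41. HMGA2 fell by 0.77, the growth factor MDK by 0.76 and LIN28B, which blocks the maturation of let-7 microRNAs, by 0.61. DLK1, a surface protein of hepatoblasts, went the other way, from 9.89, 9.67 and 9.49 to 10.90, 10.84 and 10.53. GPC3, a glypican of liver tumours, had a change of 0.03 ± 0.07 at a level of 13, near the top of the scale. Of 6 cholangiocyte markers 3 fell, and their mean level went from 8.77 to 8.86 after siCtrl to 8.44 to 8.57 after si-mut.

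The metabolic zones of the liver lobule gave an uneven picture. β-catenin is known to support perivenous genes and to hold back periportal ones. Of 7 measured periportal genes 4 rose and 0 fell. HAL, the first enzyme of histidine breakdown, rose from 5.51, 5.59 and 6.19 to 10.13, 10.30 and 9.81. PCK1, the gate of gluconeogenesis, rose by 1.57, the urea cycle enzyme ASL by 1.12 and AGXT, which detoxifies glyoxylate, by 0.86. ASS1, the enzyme just before ASL in the cycle, had a change of 0.07 ± 0.12. Of 6 measured perivenous genes 1 rose and 1 fell, RGN by 0.29 and TBX3 by 0.37. The call of RGN was lost in 5 of the 6 fits that left out 1 array (0.21 to 0.33), with median centring (adjusted p = 0.0645), in the fit of the 6 arrays alone (0.0517) and with the replicate number in the model (0.0595). GLUL, glutamine synthetase, the best-known perivenous target, read 8.61, 8.60 and 8.70 after siCtrl and 8.67, 8.70 and 8.46 after si-mut. Its groups overlapped, and the 95% interval of its change ran from -0.20 to 0.15.

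Amino acid breakdown was higher in 15 of 29 genes and lower in 1, with a median of 0.35. GNMT, which consumes methyl groups, rose from 6.22, 6.14 and 6.12 to 7.38, 7.73 and 7.38, and TAT, which breaks down tyrosine, rose by 1.09. The single fall was in MCCC2, a leucine-breakdown enzyme, by 0.55 (named after its value was seen). HPD, a further enzyme of tyrosine breakdown, changed by 0.08 ± 0.09.

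Enzymes of sterol synthesis rose in 14 of 14 cases, by 0.32 to 0.92, and the list with its regulators had 16 of 17 higher and a median of 0.62. MVD went from 9.66, 9.59 and 9.64 to 10.70, 10.58 and 10.36 and MVK from 8.54, 8.49 and 8.58 to 9.49, 9.47 and 9.33; both act in the mevalonate pathway. The sterol element TCACNCCAC was found in 1 of 19 windows of the list (5.26%), that of SREBF2, and in 1.1% of all windows. Lipid synthesis and storage rose in 12 of 21 cases and fell in 2. ACSS2, which makes acetyl-CoA from acetate, rose from 9.94, 10.08 and 10.05 to 11.40, 11.37 and 11.19, and the droplet proteins CIDEC and CIDEB rose by 1.28 and 1.08. FASN, the fatty acid synthase, had a change of 0.28 ± 0.12 that did not pass, but did in the fit of the 6 arrays alone (adjusted p = 0.0355) and with the replicate number in the model (0.0365).

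On the fatty acid oxidation list 6 of 12 genes rose and 1 fell. The list also holds the receptor PPARA, given above, and VNN1, which are not oxidation enzymes, and both are among the rises. CPT1A, which admits fatty acids to mitochondria, went from 8.33, 8.53 and 8.35 to 9.89, 9.94 and 9.84. VNN1, a pantetheinase induced by PPARA, rose from 4.11, 4.35 and 4.10, at the floor, to 7.24, 7.55 and 8.20, with si-mut arrays that differed widely among themselves. The respiratory chain had 2 of 23 genes higher and 1 lower. Glycolysis and hypoxia genes gave 4 falls and 1 rise among 14: HK2, the hexokinase of tumours, went from 9.33, 9.52 and 9.57 to 8.56, 8.54 and 8.62, PGK1 fell by 0.59, and NDRG1 rose by 0.62.

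**Figure D4:**
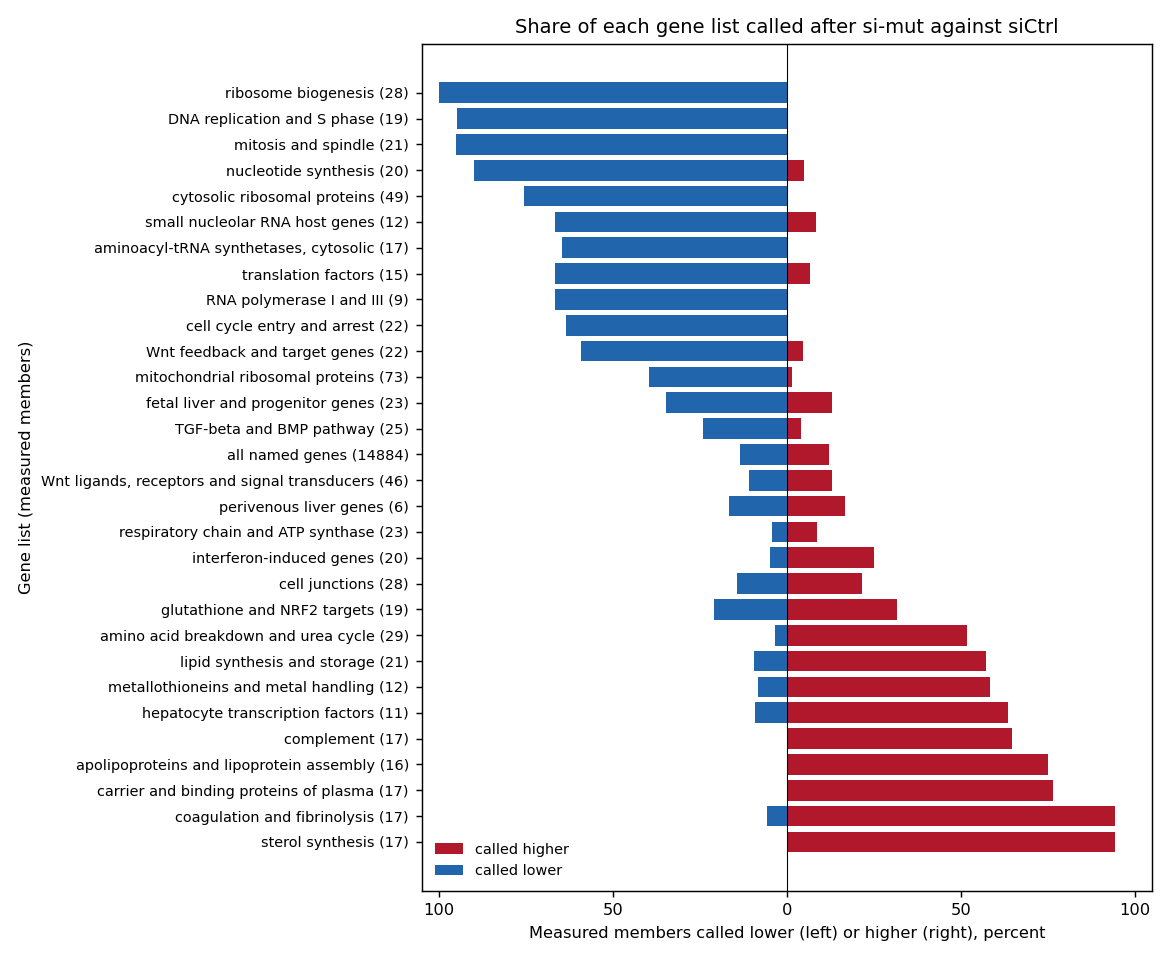
For 29 gene lists and for all named genes, bars give the percent of measured members called lower (blue, to the left) and higher (red, to the right) after si-mut; the number measured is in brackets. Lists of ribosome assembly, replication and mitosis extend to the left, lists of plasma proteins and sterol synthesis to the right, and all named genes show 13.6% lower and 12% higher.

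Genes that defend against oxidants and electrophiles did not move together. Of 19 measured glutathione and NRF2 genes 6 rose and 4 fell. GSTA2 rose from 7.48, 7.58 and 7.47 to 10.27, 10.14 and 9.89 and GSTA1 from 8.18, 8.33 and 8.07 to 10.95, 10.79 and 10.35; the pair is near-identical in sequence and may share signal. GPX2, a glutathione peroxidase, fell 3.24-fold, from 9.43, 9.54 and 9.59 to 7.84, 7.88 and 7.75, and HMOX1, which breaks down haem, fell 2.04-fold. GSR, glutathione reductase, changed by -0.17 and did not pass. In metal handling 7 of 12 genes rose and 1 fell. The metallothionein MT1M went from 6.58, 6.94 and 7.09 to 8.23, 9 and 8.60 and MT1F rose by 0.98, again among similar copies. TFR2, which senses transferrin, rose from 8.18, 8 and 8.11 to 9.48, 9.45 and 9.34, while the iron hormone HAMP fell by 0.69.

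Signalling lists outside the Wnt pathway held genes that moved in both directions. In the TGF-β and BMP pathway 6 of 25 genes fell and 1 rose, a share close to the 25.6% called over all genes. Beside BMP4, the inhibitory SMAD6 fell from 6.39, 6.10 and 6.23 to 5.20, 5.08 and 5.37, SMAD9 fell by 0.88 and the pseudoreceptor BAMBI by 0.68. Among 20 outputs and brakes of ERK signalling 6 rose and 4 fell. EGR1, an immediate early factor, read 9.13, 8.25 and 8.20 after siCtrl and 10.59, 10.01 and 10.09 after si-mut. In both groups replicate 1 was the highest, and the groups did not overlap; the dimmer probe set of this gene changed by 0.60. FOSL1 fell by 0.91, and the ERK phosphatases DUSP5 and DUSP6 rose by 0.71 and 0.56. The dimmer probe set of DUSP5 changed by 0.07. Without siCtrl replicate 1 DUSP5 was at 0.61 and not called, and without that array or si-mut replicate 1 the count of falls was 2.

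Of 42 growth factors and receptor tyrosine kinases 7 rose and 4 fell, a share close to the 25.6% called over all genes. EGFR went from 7.57, 7.65 and 7.82 to 8.59, 8.75 and 8.77, and PGF, a ligand of the VEGF family, rose from 6.19, 6.10 and 6.11 to 7, 7.24 and 7.25. MERTK, a receptor for the uptake of dying cells, fell by 0.86 and FGFR1 by 0.72. MET and FGFR4 changed by 0.16 and -0.17 and did not pass. Targets of YAP and TEAD split: 4 of 12 rose and 3 fell. CCN2 rose from 11.33, 11.39 and 11.46 to 12.33, 12.46 and 12.60, while THBS1 fell from 8.97, 9.02 and 9.26 to 7.84, 7.64 and 7.46. The factor TEAD4, which is on this list and among its 3 falls, fell by 1.12. YAP1, which is not on the list, changed by -1.09 (named after its value was seen). Its dimmer probe set changed by -1.14.

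β-catenin also links cadherins to the cytoskeleton, and cell junction genes were examined for that reason. Of 28 measured 6 rose and 4 fell. CLDN1, a tight junction protein, rose from 10.21, 10.30 and 10.47 to 11.78, 12.09 and 11.89, the largest rise among genes with a siCtrl mean of 10 or more. JUP (plakoglobin), the catenin closest to β-catenin, rose from 9.08, 9.14 and 9.18 to 10.01, 10.10 and 10. The desmosomal PKP2 fell by 0.69 and CLDN4 by 0.64. SNAI2, a repressor known from epithelial to mesenchymal transitions, rose from 5.95, 5.71 and 5.95 to 8.92, 9.12 and 8.82. Of 11 genes on the list of such transitions 3 rose and 0 fell, with a median of 0.1. The share called was close to the 25.6% called over all genes, and without siCtrl replicate 1 SNAI2 was the single rise.

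Stress and defence lists were mixed. For interferon-induced genes and p53 targets the share called was close to the 25.6% called over all genes. Of 20 interferon-induced genes 5 rose and 1 fell, with XAF1 at 0.79 and MX2 at -0.59. The list was examined because small RNAs can trigger this response, and its mean level was 5.47 to 5.50 on the siCtrl arrays and 5.59 to 5.64 on the si-mut arrays. Without siCtrl replicate 3 or si-mut replicate 2 the count of rises was 3. Of 9 p53 targets TP53INP1 rose, by 1.24, and BAX fell, by 0.30 (-0.27 and not called without siCtrl replicate 1). Of 15 regulators of apoptosis 3 rose and 4 fell, with 0 rises left without si-mut replicate 1, and PMAIP1, a trigger of cell death, fell most, from 6.17, 5.89 and 5.99 to 4.99, 4.95 and 4.75. Of 19 genes of inflammation and the acute phase 6 rose and 1 fell. PGLYRP2, which cleaves bacterial cell wall, rose from 5.66, 6.12 and 5.95 to 8.88, 9.13 and 8.56, the antimicrobial peptide LEAP2 rose by 1.63 and the chemokine CCL20 by 1.14.

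Further genes among the largest changes are given here. CDA, which deaminates cytidine, went from 6.99, 7.22 and 6.94 to 9.85, 9.82 and 9.30, and DPYD, which degrades uracil and thymine and is counted in the amino acid breakdown list above, from 4.72, 4.67 and 4.71 to 7.42, 7.67 and 7.28. Both act on pyrimidines, whose synthesis genes were among the falls above. MEGF9, a membrane protein, rose from 7.64, 7.81 and 7.68 to 9.85, 10.12 and 9.97, and AGR2, a protein disulphide isomerase, from 5.40, 5.39 and 5.33 to 7.23, 7.63 and 8.05. HCAR3, a receptor for hydroxy fatty acids, rose by 2.23, while its dimmer probe set, at 3.51 after siCtrl and so at the floor, changed by 0.53. GAST, the gastrin gene, rose from 6.05, 6.07 and 6.44 to 9.93, 10.09 and 9.28. Transport and conjugation of bile acids rose with SLC51B, by 2.52, and BAAT, by 2.11.

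Large falls outside the lists were in genes of varied function. CHST15, a sulphotransferase of chondroitin, went from 10.05, 9.86 and 10.10 to 7.09, 6.64 and 6.83. CEMIP, which degrades hyaluronan, went from 8.36, 8.89 and 9.16 to 5.82, 6.21 and 6.16, and NPNT (nephronectin), an integrin ligand, from 7.37, 7.55 and 7.54 to 5.66, 4.99 and 4.91. RELN (reelin) fell from 11.99, 12.07 and 12.16 to 10.22, 9.83 and 9.97 and MATN3 (matrilin 3) from 11.36, 11.32 and 11.40 to 9.35, 9.45 and 9.38; these were 2 of the 6 largest falls from a level of 10 or more. PGC, a pepsinogen, changed by -3, ADRA2C, an adrenergic receptor, by -2.34, and LPCAT2, which makes platelet-activating factor, by -1.99. The antisense RNA DLGAP1-AS1 was at -2.25 and ZNF114 at -1.97. MIR1204 and MIR1206, microRNA genes of the locus beside MYC, fell by 1.21 and 1.32, to levels of 4.45 to 4.76 and 2.52 to 2.74 at the floor; they were named after their values were seen. What a probe set for a microRNA gene measures (the precursor or the host transcript) is not given in the sources used here.

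Runs of neighbouring genes that changed together were looked for along the chromosomes. Of 14881 genes placed in the RefSeq gene order 1195 were called with an absolute log2 change of at least 0.58. There were 5 runs of 3 measured neighbours in the same direction, 15 genes in all, and how many such runs would arise without any relation between neighbours was not tested. One run is the apolipoprotein cluster of chromosome 11, with APOA4 at 1.47, APOC3 at 0.68 and APOA1 at 0.69. A run on chromosome 3 holds FETUB at 3.34, HRG at 1.32 and KNG1 at 3.88, all plasma proteins of the cystatin type. The others were GGCX, VAMP8 and VAMP5 on chromosome 2 (1.03, 0.66 and 0.93), PCOLCE, MOSPD3 and TFR2 on chromosome 7 (1.44, 0.68 and 1.32), and the single falling run, NPNT, TBCK and AIMP1 on chromosome 4 (-2.30, -0.69 and -0.97).

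To see where si-mut differed from the other knockdowns, it was tested directly against si-WT and si-both; all these tests use the same si-mut arrays. Against si-WT 4611 genes (31%) were called, and 523 of them differed at least 2-fold. The Wnt targets stood apart in this test too: LGR5 differed by -4.46 (si-mut minus si-WT, adjusted p = 3.27e-06), NKD1 by -3.98, AXIN2 by -3.89 and MYC by -2.45, with si-WT means of 11.37, 10.87, 10.04 and 9.35. HAL and GSTA2 were higher after si-mut than after si-WT by 5.19 and 5.17, more than against siCtrl, since their si-WT means of 4.90 and 4.93 lay below the siCtrl means of 5.76 and 7.51. CPB2, which fell against siCtrl, did not pass against si-WT: the means were 10.33 and 10.25, and the difference of 0.08 had an adjusted p of 0.579.

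Between si-both and si-mut 3297 genes (22.2%) were called, and 232 of them differed at least 2-fold. MYC, NOTUM, AXIN2 and SP5 differed by -0.13, -0.01, 0.44 and -0.21, which did not pass (adjusted p = 0.47, 0.987, 0.275 and 0.555). Without si-both replicate 1, MYC (-0.28), NOTUM (-0.40) and SP5 (-0.53) were called lower after si-both (adjusted p = 0.0228, 0.012 and 0.0165). NKD1 did not pass either, but without si-mut replicate 1 it was called higher after si-both (1.05, adjusted p = 0.0136). LGR5 was higher after si-both by 1.31 (adjusted p = 0.0446). This call was lost with the trended and robust prior (adjusted p = 0.119), with array weights (0.0604) and in the fit of the 6 arrays alone (0.132). It was also lost in 3 of the fits that left out 1 array, with 0.87 without si-both replicate 1, 1.13 without si-mut replicate 2 and 0.86 without si-mut replicate 3. Genes that rose after si-mut differed in this test. KNG1, FETUB, GSTA2 and DPYD were higher still after si-both, by 0.89, 1.33, 2.61 and 1.22. VNN1, EGR1 and TINAG were lower after si-both, with differences of -2.91, -2.68 and -2.26, so that the si-both means of 4.76, 7.55 and 4.27 lay near or below the siCtrl means of 4.19, 8.53 and 4.65. HAL, GAST and A1BG were intermediate, lower after si-both than after si-mut (differences of -1.88, -1.66 and -1.72) but above their siCtrl means. Some genes with smaller changes after si-mut were far higher or lower with both forms targeted. AADAC and OSBPL6, with changes of 0.43 and 0.45 after si-mut, were higher after si-both by 2.78 and 2.67. Their changes after si-mut were not called when 1 of several arrays was left out (0.34 to 0.46). That of AADAC was also not called under renewed quantile normalization (adjusted p = 0.0557) and with median centring (0.0524). IGFBP1, at 0.57 ± 0.24 after si-mut (adjusted p = 0.114), differed by -3.3. Its change after si-mut was called in the fit of the 6 arrays alone (adjusted p = 0.00193), with array weights (0.0383) and with the replicate number in the model (0.0465). HAMP, which fell by 0.69 after si-mut, was higher after si-both by 2.44.

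**Figure D5:**
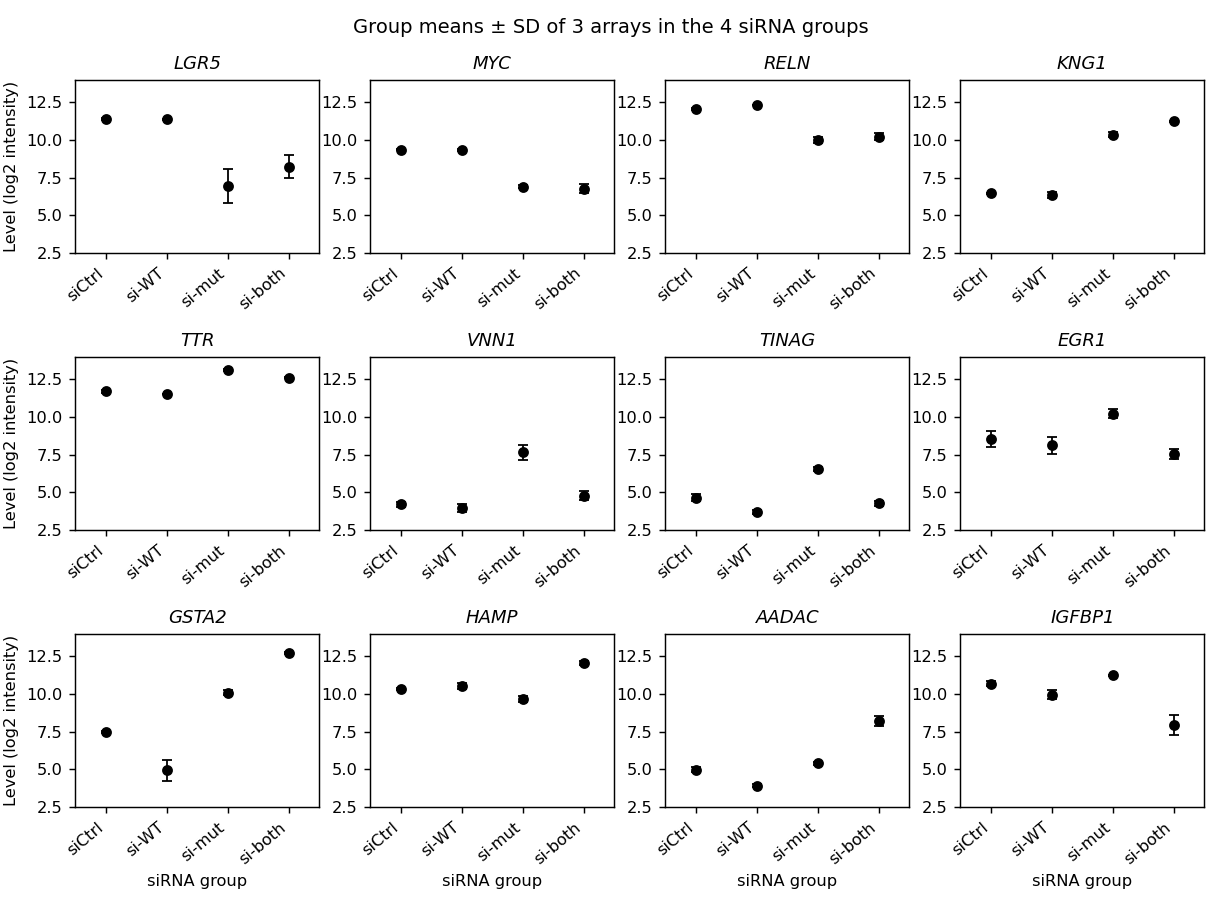
Mean levels (log2 intensity) with SD of 3 arrays in the 4 groups for 12 genes. LGR5, MYC and RELN are low in both groups in which the truncated form was targeted, VNN1, TINAG and EGR1 are highest after si-mut (7.66, 6.53 and 10.23), and GSTA2, HAMP and AADAC are highest after si-both.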

How the data were processed

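RNA of 12 HepG2 samples (4 groups of 3) was measured on Affymetrix whole-transcript arrays. Per the submitters' processing notes, the authors ran RMA in Expression Console 1.1 and deposited log2 intensity values; the sources used here do not name the array's library files or genome build. Of 53617 probe sets, 16098 carried 1 gene symbol in the platform annotation and 37519 none, and the brightest probe set of each symbol (mean of the 12 arrays) was kept, which left 14884 genes. Those of the targeted gene were not analysed here.

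A linear model of 4 group means was fitted to all 12 arrays with limma 3.58.1 (R 4.3.3; 8 residual degrees of freedom, median 13.3 with the prior), and p-values were Benjamini-Hochberg adjusted over the 14884 genes. Genes were called at an adjusted p under 0.05. SE is that of the fit and fold is 2 to the power of the log2 change. The fit was tested on simulated data. With 3 arrays against 3 no outlier test was made. The text names, where it names any, the 20 largest called changes each way among genes whose arrays do not overlap (6 each way from a siCtrl level of 10), the Wnt target list, in other lists up to 6 called members with the largest change and up to 3 uncalled ones with the highest level, 6 each way in the comparisons with si-WT and si-both, and neighbour runs; others are marked as named after their values were seen. The compared genes and lists were chosen with earlier results of these data known.

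Motifs were searched on both strands of RefSeq promoter windows (GRCh38.p14), with all windows of a gene counted; this choice over the first window of each gene was made after both were seen. Plots were made in Python 3.11.15 (matplotlib 3.10.9). Alternatives covered normalization, a filter on dim genes, probe set averaging, the prior, the arrays fitted, array weights, the replicate number and leaving out each array.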

Additional observations from a re-analysis of the deposited data

Results flagged for a closer look

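The probe sets without a gene symbol were outside the comparison of named genes and were fitted separately between si-mut and siCtrl. Of 37519 such probe sets 3112 (8.29%) passed limma's test at the same threshold. Of these 1425 were higher after si-mut and 1687 lower, and 542 differed at least 2-fold. Their log2 changes ran from -3.61 to 3.59. What these probe sets measure was not analysed here.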

How the results depend on the processing

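The number of genes called between si-mut and siCtrl ran from 3768 to 4347 over the other settings and from 3094 to 3326 when 1 array was left out, and genes changed at least 2-fold from 292 to 308 and from 295 to 336. Against si-WT the called genes ran from 4588 to 4886 and from 3983 to 4118, and between si-both and si-mut from 2429 to 3525 and from 2590 to 3371. The replicate numbers are not said to pair the samples. Deviations of same-numbered siCtrl and si-mut arrays correlated at 0.117, 0.038 and 0.083, and each siCtrl array matched its own number best, a hint from the data and not the design. With the replicate number as a block 4024 genes were called, 3736 of them also without it. Of 226 called results for single genes, 210 kept their call in every alternative, 16 lost it in at least 1 and 0 reversed. Of 34 uncalled ones, 14 gained a call in at least 1 alternative. Among the 34 the sign turned under renewed quantile normalization for APOA2 (-0.16), APOB (-0.07) and GPC3 (-0.12), and for NOTUM between si-both and si-mut (0.00; 0.01 with median centring). It also turned for CFI (0.00) with median centring, and for RPL41 (0.00) with averaged probe sets. Leaving out 1 array turned the sign in some fits for GLUL (-0.07 to 0.05), LEF1 (-0.16 to 0.01), CFI (0.00 to 0.04), ORM2 (-0.04 to 0.11) and NOTUM between si-both and si-mut (-0.40 to 0.20). The cause was not tested. With the first promoter window of each gene in place of all windows the E-box was in 9.02% of all genes and in 31.8% of the ribosome assembly genes, and the E2F site in 2.47% and in 43.8% of the replication genes. Signal near the floor limits what can be seen of dim genes.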
